A study of Mus musculus with 8 samples.

Results

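The genes of the CatSper calcium channel and of the sperm potassium channel were followed through testis development, together with the proton channel gene Hvcn1. The members were chosen by symbol, and all 10 of them were found among the 23983 genes with an expression value: Catsper1, Catsper2, Catsper3, Catsper4, Catsperb, Catsperg1, Catsperg2, Kcnu1, Lrrc52 and Hvcn1. The study sequenced RNA from whole testis of wild-type C57BL/6J mice at days 12, 16 and 24 after birth (d12, d16, d24) and from adults, with 1 library per stage. Expression is given as FPKM, a count of fragments per kilobase of transcript with a scaling of each library by the authors, a level per length that allows genes to be compared. The staged series serves to find when transcripts first appear as the first wave of germ cells passes through meiosis and enters the haploid phase. Each library was made from a piece of testis, and how many animals it represents is not given in the sources used here. Because each stage has 1 library, no difference has a replicate check and no test was run.

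CatSper is a calcium channel of the principal piece of the sperm flagellum, opened by alkaline pH inside the cell, and it is needed for hyperactivated swimming and male fertility. The products of Catsper1 to Catsper4 line its pore, and large auxiliary proteins with extensive extracellular domains surround it, among them those encoded by Catsperb and by the gamma subunit genes Catsperg1 and Catsperg2. Kcnu1 encodes SLO3, the pore of the alkaline-activated potassium current of mouse sperm, Lrrc52 encodes its leucine-rich repeat gamma subunit, and Hvcn1 encodes a voltage-gated proton channel known from phagocytes, B cells and human sperm.

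The number of fragments behind each value was recovered from the table, since the low FPKM values of a library are whole multiples of the value of 1 fragment. The d12 library held about 8910000 fragments on genes, the d16 library 9450000, the d24 library 23689000 and the adult library 12054000. A transcript of 1 kb with 3 fragments, taken as the floor for a gene at 0, would have 0.240 FPKM in the d12 and the d16 library, 0.137 in the d24 library and 0.336 in the adult one. Ranges in parentheses are exact 95% intervals on these fragments, Poisson for a level and Clopper-Pearson for a ratio, and cover counting error only. A fold against a 0 is given as the other value over the floor, which is not the upper end of such an interval.

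The members fell into 3 groups by the stage at which they first reached 2 FPKM, the threshold of the study. Catsper2, Catsperb, Catsperg1 and Catsperg2 reached it at d16, which makes 4 of 10 members beside 3.55% of all genes. Catsper1, Catsper3, Catsper4, Kcnu1 and Lrrc52 reached it at d24, which makes 5 of 10 members beside 6.3% of all genes. Hvcn1 stayed below it at every stage, as did 43.3% of all genes. The pore genes were thus split, with Catsper2 in the early group and the other 3 in the late one, whereas all 3 auxiliary genes were early and both potassium channel genes were late.

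**Figure D1:**
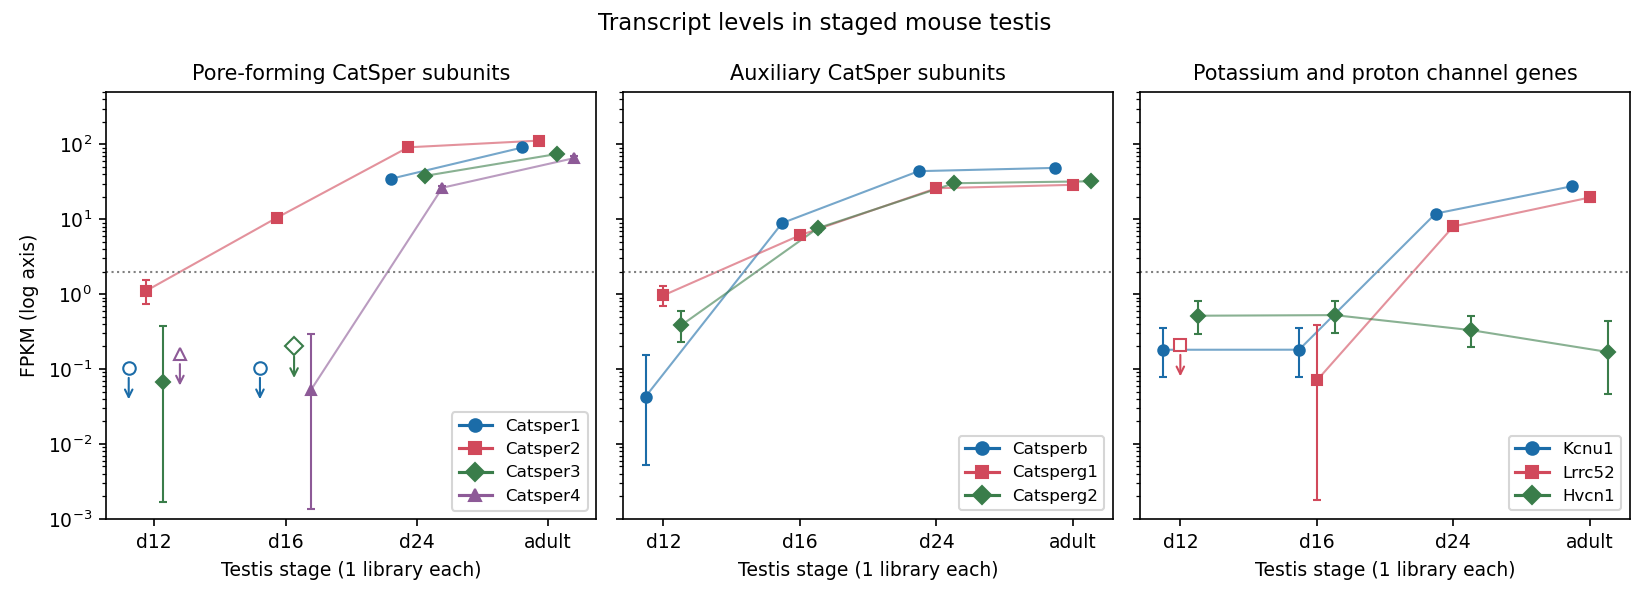
FPKM of the 10 members in the d12, d16, d24 and adult library on a log axis, in 3 panels by role. Bars are exact 95% Poisson intervals on the fragments, open symbols with arrows mark values of 0 at the level of 3 fragments, lines join neighbouring stages above 0 and the dotted line is 2 FPKM. Catsper2 and the auxiliary genes lie above 2 FPKM at d16, the other pore genes, Kcnu1 and Lrrc52 rise above it at d24, and Hvcn1 stays below it.

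Among the pore genes, Catsper2 had 1.102 FPKM (0.749 to 1.56) in the d12 library, 10.5 FPKM (9.34 to 11.8) at d16, 91.3 FPKM (88.7 to 94.0) at d24 and 112 FPKM (108 to 117) in adult testis. It had the highest value of the members in each of the 4 libraries, though its interval overlapped with those of Catsperg1 and Hvcn1 at d12 and with that of Catsperb at d16. From d12 to d16 its level was 9.53-fold higher (6.57 to 14.3), and from d16 to d24 it was 8.69-fold higher (7.73 to 9.82). In adult testis Catsper2 was 1.23-fold above d24 (1.17 to 1.29), a difference that turned to 0.881-fold once all libraries were brought to an equal FPKM sum.

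Catsper1, whose product carries the histidine-rich N-terminus that has been linked to pH sensing, was at 0 FPKM at d12 and at d16. It then stood at 34.8 FPKM (33.2 to 36.5) at d24 and at 90.8 FPKM (86.7 to 95.04) in adult testis. Against the floor of 3 fragments at d16, which is 0.104 FPKM, its level was at least 334-fold higher at d24. Its rise went on to the adult stage, 2.61-fold (2.44 to 2.79) above d24. At the same depth and with a transcript of similar length, 2247 bp against 2304 bp for Catsper1, Catsper2 had 295 fragments at d16.

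Catsper3 had 0.0666 FPKM at d12, which is 1 fragment, 0 at d16, 38.0 FPKM (35.7 to 40.4) at d24 and 74.2 FPKM (69.2 to 79.6) in adult testis. Catsper4 was at 0 at d12, at 0.0530 FPKM from 1 fragment at d16, at 26.4 FPKM (24.6 to 28.2) at d24 and at 65.2 FPKM (61.0 to 69.7) in the adult. Both went with Catsper1, at or within 1 fragment of 0 up to d16 and high at d24. Catsper3, by the same floor, was at least 189.8-fold higher at d24 than at d16. For Catsper4 the ratio of d24 to d16 was 497, with the wide interval of 88.9 to 19642 that a single fragment leaves. The adult level of Catsper3 was 1.95-fold (1.78 to 2.15) that of d24, and that of Catsper4 was 2.48-fold (2.25 to 2.72).

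A functional pore needs all 4 alpha subunits, so the balance of their transcripts within each library was compared, a ratio that no scaling between libraries can alter. At d16 Catsper2 was at least 101-fold above Catsper1, taken at the floor. At d24 the ratio of Catsper2 to Catsper1 was 2.63 (2.48 to 2.78), and in adult testis it was 1.24 (1.16 to 1.31). The pore genes thus drew together, from a ratio of highest to lowest of 3.46 at d24 to 1.72 in adult testis, with Catsper2 highest and Catsper4 lowest at both stages. Catsper3 changed place with Catsper1, at 1.09 (1.01 to 1.18) of its level at d24 and 0.818 (0.752 to 0.889) in the adult. Catsper4 held nearly the same proportion to Catsper1, 0.758 (0.698 to 0.822) at d24 and 0.718 (0.662 to 0.778) in the adult, with overlapping intervals. Summed over the 4 pore genes, the level was 1.17 FPKM at d12, 10.6 FPKM at d16, 190.5 FPKM at d24 and 343 FPKM in adult testis, and nearly all of the sum at d16 was Catsper2.

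Catsperb, which encodes the beta subunit, had 0.0430 FPKM (0.00520 to 0.155) in the d12 library, 8.89 FPKM (8.05 to 9.79) at d16, 43.9 FPKM (42.4 to 45.3) at d24 and 48.5 FPKM (46.2 to 50.9) in the adult. Its step from d12 to d16 was the steepest among the members with a ratio at that step, 207-fold (56.9 to 1714), from 2 to 413 fragments. From d16 to d24 it was 4.93-fold higher (4.45 to 5.47). In adult testis it was at 1.11-fold (1.04 to 1.17) of d24, which became 0.793-fold with equal FPKM sums and 0.936-fold with equal upper quartiles.

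Catsperg1 stood at 0.963 FPKM (0.697 to 1.30) in the d12 library, at 6.10 FPKM (5.40 to 6.87) at d16, 25.9 FPKM (24.8 to 27.1) at d24 and 28.8 FPKM (26.97 to 30.7) in adult testis. Catsperg2 had 0.383 FPKM (0.230 to 0.596) in the d12 library, 7.58 FPKM (6.84 to 8.39) at d16, 30.3 FPKM (29.1 to 31.4) at d24 and 32.1 FPKM (30.3 to 34.0) in adult testis. Both genes climbed over the same 2 steps and then levelled off. Catsperg1 was 6.34-fold higher at d16 than at d12 (4.58 to 8.96) and 4.25-fold higher at d24 than at d16 (3.74 to 4.84). Catsperg2 was 19.8-fold (12.6 to 33.4) and 3.99-fold higher (3.58 to 4.45) over these steps. The adult level of Catsperg1 was 1.11-fold (1.03 to 1.20) that of d24, but 0.796-fold with equal FPKM sums and 0.940-fold with equal upper quartiles. For Catsperg2 the adult level was 1.06-fold that of d24, within counting error (0.989 to 1.14), and 0.761-fold and 0.898-fold under these scalings.

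By their curated transcripts the gamma genes lie 483185 bp apart on chromosome 7 and are near copies over part of their length. Their transcripts are 98.1% identical over 48.1% of Catsperg1, and 39.9% of the 50-base words of Catsperg1, the length of a read, also occur in Catsperg2. Reads from these stretches can be assigned to either gene, so the split between them is uncertain, and no other member shared a 50-base word with another gene's curated transcript. As deposited, the ratio of Catsperg1 to Catsperg2 was 2.51 (1.44 to 4.58) at d12, 0.805 (0.685 to 0.942) at d16, 0.857 (0.809 to 0.908) at d24 and 0.897 (0.821 to 0.979) in the adult. The d12 ratio rests on 43 fragments against 19, and since the intervals do not cover the split of shared reads, no order of the pair is drawn from these values.

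The auxiliary genes summed to 1.39 FPKM at d12, 22.6 FPKM at d16, 100.1 FPKM at d24 and 109 FPKM in the adult. At d16 this exceeded the summed pore genes, and at d24 and in the adult the pore genes had the larger sum. The ratio of Catsperb to Catsper1 shows the same shift without any scaling, from at least 85.4 at d16, by the floor, to 1.26 (1.19 to 1.34) at d24 and 0.534 (0.499 to 0.571) in adult testis. Catsper2 and Catsperb, both early, had a ratio of 25.6 (6.52 to 221) at d12, where Catsperb rested on 2 fragments, and of 1.18 (1.01 to 1.37) at d16, and then moved apart to 2.08 (1.99 to 2.18) at d24 and 2.31 (2.17 to 2.47) in the adult.

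Kcnu1 had 0.181 FPKM at both d12 (0.0781 to 0.356) and d16 (0.0782 to 0.357), from 8 fragments each. It reached 11.9 FPKM (11.1 to 12.7) at d24 and 27.6 FPKM (25.8 to 29.5) in adult testis. Its ratio of d16 to d12 was 1.00 with a wide interval (0.328 to 3.06), and 1.62 divided by Gapdh. Its level was then 65.6-fold higher at d24 (33.2 to 153), with a further 2.32-fold difference (2.11 to 2.55) to the adult.

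Lrrc52 was at 0 at d12, at 0.0704 FPKM from 1 fragment at d16, at 8.01 FPKM (6.94 to 9.20) at d24 and at 19.5 FPKM (16.9 to 22.4) in the adult. The ratio of d24 to d16 was 114 (20.2 to 4517), and the adult level was 2.44-fold (1.99 to 2.98) that of d24. The pore gene and its gamma subunit gene thus kept their proportion, with a ratio of Kcnu1 to Lrrc52 of 1.49 (1.27 to 1.74) at d24 and 1.41 (1.21 to 1.66) in the adult. The ratio of Catsper1 to Kcnu1 was 2.92 (2.70 to 3.17) at d24 and 3.29 (3.03 to 3.57) in the adult. The calcium channel gene was thus the more abundant of the pair at these stages. At d12 and d16, with Catsper1 at 0, the ratio was at most 0.575 by the floor, which leaves out the counting error of Kcnu1. The intervals overlapped there, reaching up to 0.128 FPKM for Catsper1 and down to 0.078 FPKM for Kcnu1, so no order is drawn at d12 and d16.

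Hvcn1 lay among the other members at d12 and was the lowest of them at d24 and in adult testis. It had 0.515 FPKM (0.298 to 0.820) in the d12 library, 0.525 FPKM (0.299 to 0.821) at d16, 0.331 FPKM (0.196 to 0.509) at d24 and 0.169 FPKM (0.0461 to 0.433) in adult testis, from 17, 17, 19 and 4 fragments. At d24 its value lay at the 34.3rd percentile of all genes, whereas Catsper2 lay at the 95.5th. The ratio of d24 to d16 was 0.630 (0.313 to 1.30) and that of adult to d24 was 0.511 (0.128 to 1.56), so neither step went beyond counting error in the deposited values. The first of these ratios became 0.411 (0.204 to 0.848) with equal FPKM sums, beyond counting error, and 1.41 (0.698 to 2.91) divided by Gapdh. Relative to Hvcn1, Kcnu1 went from 0.345 (0.132 to 0.864) at d16 to 36.0 (23.2 to 60.9) at d24 and 163 (63.5 to 600.2) in the adult.

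The last exons of Hvcn1 share 1342 bp with Tctn1, a gene on the opposite strand with 3.18, 6.96, 10.2 and 9.41 FPKM at d12, d16, d24 and in the adult. The libraries keep the strand and the mapping used it, but whether the computation of FPKM did is not stated, and how far reads of Tctn1 enter the value of Hvcn1 was not tested. Because Hvcn1 is known from blood cells, their markers were set beside it. The 6 macrophage markers, all above 0 in each library, summed to 47.2, 55.0, 46.8 and 46.3 FPKM in the order of the stages, with Lyz2 the most abundant. The 6 B-cell markers summed to 0.232, 0.569, 2.62 and 6.10 FPKM, mostly Pax5 at d24 and in the adult, with Cd79a, Cd79b and Cd22 at or below 0.121 FPKM throughout. Of the neutrophil markers, 5 of 6 were matched, and S100a8, S100a9, Elane and Camp were at 0 in every library, so that Mpo alone gave the sums of 0.0314, 0.283, 0.769 and 1.06 FPKM. The part of these cells in the level of Hvcn1 was not tested.

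Counted over whole steps, 4 of 10 members were at least 2-fold higher at d16 than at d12 on the log2(FPKM + 0.1) scale, and these were the 4 early genes. Over the 13901 genes averaging 1 FPKM or more in the 4 libraries, 12.6% were higher by that much and 3.67% lower, with no member among the lower ones. From d16 to d24, 9 of 10 members were at least 2-fold higher, beside 27.5% of genes, and no member was lower, beside 8.45%. These shares of all genes move with the scaling. Those higher and lower were 19.4% and 30.2% with equal FPKM sums, and 60% and 0.36% divided by Gapdh. With equal FPKM sums 1 member, Hvcn1, was at least 2-fold lower, though it is not part of these shares. From d24 to adult testis, Catsper1, Catsper4, Kcnu1 and Lrrc52, 4 of 10 members, were at least 2-fold higher, beside 11.4% of genes, a count that was 0 with equal FPKM sums and 3 with equal upper quartiles. No member was at least 2-fold lower at that step, beside 2.2% of genes. The mean filter was passed by 9 members and not by Hvcn1, with a mean of 0.385 FPKM, which is counted here with the others. Dividing by Gapdh would multiply every ratio of d16 to d12 by 1.62 and of d24 to d16 by 2.23, and equal FPKM sums would multiply those of d24 to d16 by 0.651 and of adult to d24 by 0.717.

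The early and the late group also differed in how far they had come by d24. The 4 early members were at 9.36% to 23.6% of their adult level at d16 and at 81.4% to 94.3% at d24. The 5 late members were at 0% to 0.657% at d16 and at 38.3% to 51.2% at d24. The gap at d16 partly restates the threshold of 2 FPKM that defined the groups. Within each group the members stayed near the genes of the same timing: the ratio of adult to d24 ran from 1.06 to 1.23 in the early members, beside a median of 1.15 (quartiles 0.920 and 1.46) over 848 genes that first reached 2 FPKM at d16. It ran from 1.95 to 2.61 in the late members, beside a median of 2.23 (quartiles 1.26 and 3.51) over 1510 genes that first reached it at d24. These are deposited values. With equal FPKM sums the ratio ran from 0.761 to 0.881 in the early members and from 1.40 to 1.87 in the late ones. The ratios of all genes move by the same factor of 0.717.

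**Figure D2:**
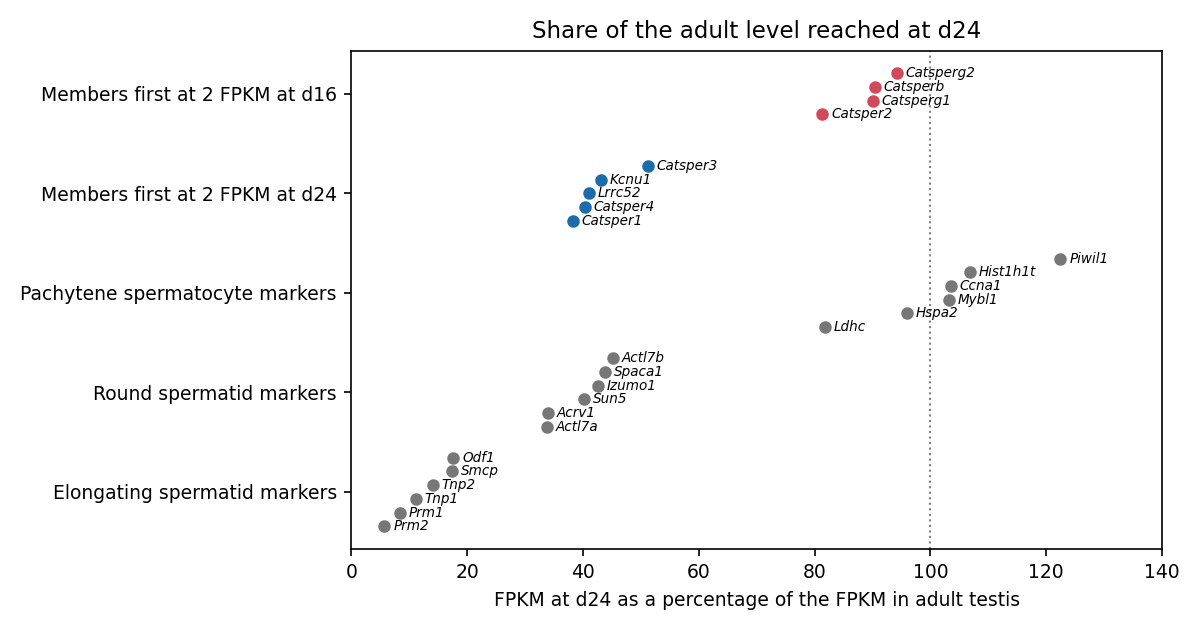
FPKM at d24 as a percentage of the adult FPKM, 1 point per gene, for the 4 early members, the 5 late members and the 6 marker genes each of pachytene spermatocytes, round spermatids and elongating spermatids; the dotted line is 100%. In the deposited values, the early members lie from 81.4% to 94.3% and the late members from 38.3% to 51.2%. The pachytene markers lie from 81.9% to 122%, the round spermatid markers from 33.8% to 45.2% and the elongating spermatid markers from 5.72% to 17.6%.

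The makeup of the testis changes over these stages, and marker genes of its cells were read in the same libraries. The 6 pachytene spermatocyte markers, of which Ldhc was the highest in the adult, summed to 111, 1257, 4107 and 4572 FPKM in the order of the stages, and their median share of the adult value was 45.8% at d16 and 103% at d24. The 6 round spermatid markers, of which Actl7b was the highest in the adult, summed to 3.80, 23.3, 783 and 1867 FPKM, with a median share of 0.0997% at d16 and 41.4% at d24. The 6 elongating spermatid markers, with Prm2 the highest in each library, summed to 13.1, 4.42, 2424 and 26742 FPKM, with a median share of 0.0132% at d16 and 12.6% at d24. At d24 the late members thus overlapped with the range of the round spermatid markers, and the early members lay between the round spermatid and most of the pachytene markers. In whole testis, more cells of a type and more RNA per cell cannot be told apart, and the part of cell makeup in the members' levels was not tested. The d12 library held more fragments of elongating spermatid genes than d16, 17 against 6 for Prm1 for example, and whether the single fragment of Catsper3 at d12 belongs with these was not tested.

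Markers of the other cells of the testis were present as well. Sertoli cell markers, with Cldn11 the highest throughout, summed to 175.7, 133, 81.0 and 60.6 FPKM from d12 to the adult, and Leydig cell markers, with Insl3 the highest at d24 and in the adult, to 132, 82.4, 153 and 581 FPKM. Markers of spermatogonia, with Stra8 the highest at d12 and d16 and Dmrt1 at d24 and in the adult, summed to 205, 122, 55.0 and 38.1 FPKM. Those of early meiotic spermatocytes summed to 378, 628, 396 and 390.2 FPKM, of which Sycp1 alone gave 288, 536, 309 and 296 FPKM. The other markers of this list did not share 1 course. Dmc1 and Prdm9 fell from d12 to the adult, Meiob was highest at d16, and Rec8 and Spo11 were highest in the adult.

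By level, the order in adult testis was Catsper2, Catsper1, Catsper3, Catsper4, Catsperb, Catsperg2, Catsperg1, Kcnu1, Lrrc52 and Hvcn1. The intervals of Catsper3 and Catsper4 overlapped, as did those of Catsperg2 and Catsperg1 and those of Catsperg1 and Kcnu1. At d24 the order was Catsper2, Catsperb, Catsper3, Catsper1, Catsperg2, Catsper4, Catsperg1, Kcnu1, Lrrc52 and Hvcn1, with overlapping intervals for Catsper3 and Catsper1 and for Catsper4 and Catsperg1. At d16 it ran Catsper2, Catsperb, Catsperg2 and Catsperg1, each overlapping with the next, followed by Hvcn1 and Kcnu1. In each order the places of Catsperg1 and Catsperg2 are those of the deposited values, with the split of their shared reads uncertain. Catsperb went from the second place at d24 to the fifth in the adult, as the late pore genes passed it.

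**Figure D3:**
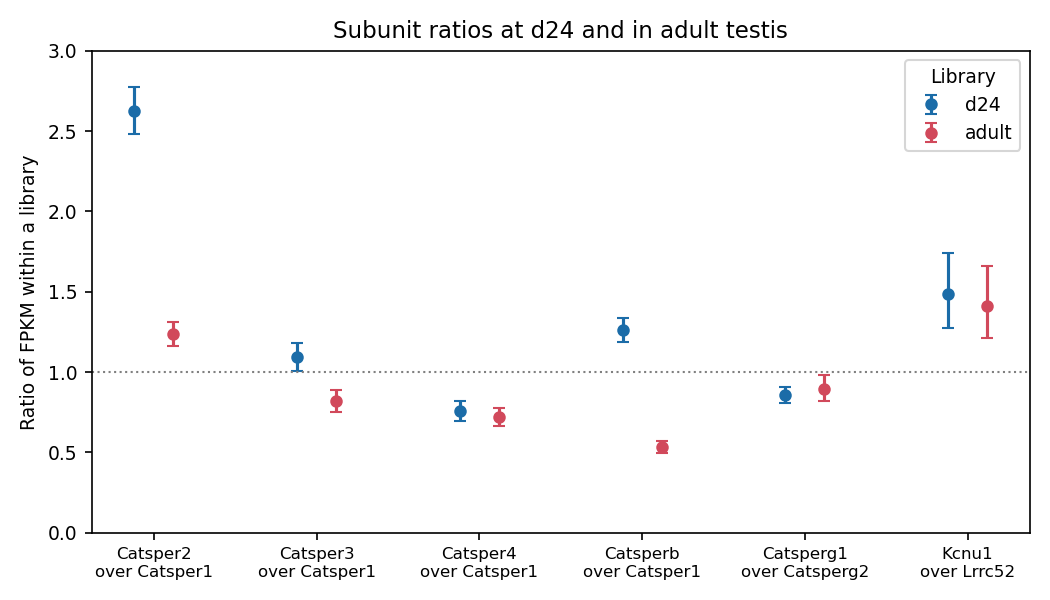
Ratios of FPKM between pairs of members within the d24 library (blue) and within the adult library (red), with exact 95% Clopper-Pearson intervals on the fragments; the dotted line is a ratio of 1. Catsper2 and Catsperb fall relative to Catsper1, from 2.63 to 1.24 and from 1.26 to 0.534, whereas Catsper4 over Catsper1 and Kcnu1 over Lrrc52 overlap between the stages.

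The profiles of genes other than the members were also compared with those of Catsper1, Kcnu1 and Hvcn1 over the 4 libraries. Each was taken as log2(FPKM + 0.1) centred on the gene's mean. Euclidean distance was used, over 13585 genes outside the members that reached 2 FPKM in any library. The nearest to Catsper1 were 4933436I01Rik at 0.17, Fam71e2 at 0.17 and Capza3 at 0.20. Capza3, which encodes a sperm-specific actin capping protein, had 0 FPKM at d12 and d16, 29.3 FPKM at d24 and 88.5 FPKM in the adult. Where genes are at or near 0 FPKM, the pseudocount sets the shape of these profiles. Nearest to Kcnu1 were BB019430 at 0.06, 1700018A04Rik at 0.08 and 4933433G08Rik at 0.12, and to Hvcn1, on its 4 to 19 fragments per library, Ube2e1 at 0.06, Tmem161a at 0.07 and Sp3os at 0.08. With a pseudocount of 1 FPKM, an alternative chosen after seeing the data, 0 of the 3 genes stayed among the nearest 3 for each of these members. In the order named, the neighbours of Catsper1 then ranked 4, 74 and 10. For Kcnu1 the ranks were 517, 476 and 491, and for Hvcn1 they were 4433, 2294 and 3216. The neighbours thus depend on the pseudocount, least so for Catsper1.

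Of 9 further genes of the CatSper complex, 6 were matched in the table, and Catspere1, Tmem249 and Tmem262 were not. All 6 were at least 2-fold higher at d16 than at d12, beside 12.6% of genes, and again at d24 than at d16, beside 27.5%, and 1 was so in the adult against d24, beside 11.4%. Like the auxiliary members, most were early: Catsperd, Catspere2, Catsperz and Slco6c1 first reached 2 FPKM at d16, as 3.55% of all genes did, and C2cd6 was above it at d12. Of the 50-base words of Catspere2, 16.5% also occur in Catspere1, so reads of that gene may enter its value. Catsperd, the delta subunit gene, had 0.187, 4.65, 34.6 and 38.2 FPKM at d12, d16, d24 and in the adult. Slco6c1, a transporter gene of the complex, had 0.295, 15.6, 121 and 138 FPKM. Efcab9, which encodes the calcium-binding partner of the zeta subunit, first reached the threshold at d24, with 0.208, 1.88, 193 and 585 FPKM from 2, 18, 3252 and 4003 fragments, and it was thus detected at d16, where Catsper1 was at 0. In the same order Catsperz, the zeta subunit gene, had 0.204, 18.8, 180.1 and 209 FPKM. C2cd6 had 3.41, 30.9, 185.9 and 279.9 FPKM. In adult testis Efcab9, C2cd6, Catsperz and Slco6c1 were thus each above every member.

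Of the 6 relatives of Kcnu1 and Lrrc52, 1 reached 2 FPKM at any stage. This was Kcnma1, which encodes the calcium-activated channel SLO1 and had 5.08, 5.59, 3.13 and 2.96 FPKM over the 4 stages. Kcnt1, Kcnt2, Lrrc26 and Lrrc55 never reached 2 FPKM and Lrrc38 was at 0 in each library. In this list 0, 1 and 0 genes were at least 2-fold higher over the 3 steps and 2, 0 and 0 lower, beside 12.6%, 27.5% and 11.4% of genes higher and 3.67%, 8.45% and 2.2% lower, the single higher one being Lrrc26, at 0 at d16 and 0.226 FPKM at d24 from 6 fragments. It is counted through the pseudocount, and by the floor it was at least 1.14-fold higher.

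Of 9 other genes of sperm ion transport and signalling, 4 were at least 2-fold higher at d16 than at d12, 7 at d24 than at d16 and 2 in the adult than at d24, and none was lower, beside the same shares of genes. Slc9c1, the sperm-specific sodium-proton exchanger gene, kept the early pattern, with 0.0206, 6.17, 76.6 and 89.1 FPKM, and Slc26a8 likewise had 0.913, 5.07, 43.2 and 41.7 FPKM. Atp1a4, the sodium pump isoform of sperm, was late, with 0.0229, 0.0918, 57.0 and 300.0 FPKM. Adcy10, the soluble adenylyl cyclase gene, had 0.583, 2.76, 44.0 and 84.8 FPKM. Prkaca, Abhd2, Atp2b4 and Cftr were above 2 FPKM from d12 on, and Slc26a3 never reached it.

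All 10 members are autosomal and lie on 9 chromosomes, here in GRCm38.p6. Catsper1 spans chr19:5335615-5344281 on the plus strand with 12 exons, Catsper2 chr2:121391633-121414598 on the minus strand with 13, Catsper3 chr13:55784500-55824048 on the plus strand with 8, and Catsper4 chr4:134211965-134227431 on the minus strand with 9 to 11. Catsperb, the longest member at 221365 bp, spans chr12:101404645-101626009 on the plus strand. Catsperg1 lies at chr7:29181532-29215589 and Catsperg2 at chr7:29697217-29727049, both on the minus strand. Kcnu1 spans chr8:25848627-25937943 on the plus strand with 27 exons, and Lrrc52, with 2 exons only, lies at chr1:167445675-167466780 on the minus strand. Hvcn1 is at chr5:122206805-122242297 on the plus strand.

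Promoters in the RefSeq table of GRCm38.p6 were matched for 6 members, Catsper2, Catsper3, Catsper4, Catsperb, Catsperg1 with 2 starts, and Lrrc52; Catsper1, Catsperg2, Kcnu1 and Hvcn1 have no entry. In the 250 bases upstream of the start, Catsper2 stood apart, with 74.8% G and C and 35 CpG dinucleotides, a count that 2.97% of the 32851 promoters reach. Catsper3 had 2 CpG, and Catsper4 and Catsperb had 1 each, a count of 2 or fewer being found in 29.0% of promoters. Lrrc52 had 5 CpG and the Catsperg1 starts had 5 and 7, beside a median of 6 over all promoters. The early members thus did not share a base composition, since Catsperb, at 38.0% G and C, was the lowest of the members matched. CpG counts were added after the sequences were seen.

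By their curated transcripts, both Catsper2 and Catsper3 start head to head with another gene. The curated start of Catsper2 lies 110 bp from that of Pdia3, a chaperone gene of the endoplasmic reticulum with 91.7, 92.2, 145 and 111 FPKM over the 4 stages, and that of Catsper3 lies 111 bp from 4930451E10Rik, a non-coding gene not matched in the table. No other member has such a neighbour within 1000 bp of its curated start. The spans of Catsper2, Catsper3, Catsper4, Catsperb and Catsperg1 given above include predicted transcripts that begin farther upstream, so the 250-base windows lie partly, or for Catsper2 and Catsperg1 wholly, inside these spans, and that of Catsper2 overlaps the start of Pdia3. The sequences shown are the longest runs of these windows outside every annotated exon, for the early genes Catsper2 and Catsperb and the late genes Catsper4 and Lrrc52, because they show how CpG differs within each group. They are RefSeq sequences of GRCm38.p6 on the strand of each member, at chr2:121413793-121413837 (minus), chr12:101404423-101404644 (plus), chr4:134227432-134227633 (minus) and chr1:167466781-167467030 (minus), and capitals mark CpG dinucleotides, 9 in the 45 bases of Catsper2, 1 in the 222 bases of Catsperb, 0 in the 202 bases of Catsper4 and 5 in the 250 bases of Lrrc52.
Catsper2: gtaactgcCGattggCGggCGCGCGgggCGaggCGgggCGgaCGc
Catsperb: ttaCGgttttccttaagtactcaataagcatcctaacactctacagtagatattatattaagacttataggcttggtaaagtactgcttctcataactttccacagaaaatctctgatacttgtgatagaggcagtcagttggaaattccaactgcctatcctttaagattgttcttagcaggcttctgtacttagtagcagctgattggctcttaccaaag
Catsper4: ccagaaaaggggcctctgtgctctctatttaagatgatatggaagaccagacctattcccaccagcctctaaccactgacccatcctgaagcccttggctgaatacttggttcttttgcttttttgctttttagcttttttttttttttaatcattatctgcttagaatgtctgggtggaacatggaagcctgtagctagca
Lrrc52: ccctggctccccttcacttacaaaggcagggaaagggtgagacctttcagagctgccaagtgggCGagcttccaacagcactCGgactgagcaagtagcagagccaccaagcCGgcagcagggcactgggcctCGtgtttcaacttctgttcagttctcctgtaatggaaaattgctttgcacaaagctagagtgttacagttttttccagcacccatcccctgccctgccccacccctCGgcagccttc

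Motifs were searched on both strands of the whole 250-base windows. The cyclic AMP response element TGACGTCA was found in 0 of 7 member promoters, beside 1.55% of all promoters. Its shorter form TGACG, which is contained in it, occurred in Catsper2 alone, on the opposite strand at 77 to 73 bases upstream of the start, beside 17.8% of all promoters. TATAAA occurred in the more distal of the Catsperg1 starts, 149 to 144 bases upstream, beside 12.4%. The RFX half-site GTTGCC was found in none, beside 10.4%, and the MYB core AACNG in 5 of 7, beside 74.2%. A match is a match of letters and says nothing of binding.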

How the data were processed

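Whole-testis RNA libraries of d12, d16, d24 and adult C57BL/6J mice were assigned to stages from their labels, 1 per stage. The authors aligned the pairs with TopHat2 2.1.0 (Bowtie 1.1.2), keeping 1 alignment each, on GRCm38/mm10, and deposited FPKM values from Cuffdiff (Cufflinks 2.2.1), corrected for multi-mapped reads and bias but not for effective length. The authors define FPKM per kilobase and mapped fragments, and the sources used here name no further scaling. The divisors recovered were 12523456, 12500687, 21970140 and 8917182, the last 2 below the fragments on genes. The 4 H3K27Ac samples were not analysed here.

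Fragments were recovered from 14603 genes with 1 curated RefSeq transcript, where 91.7% to 92.4% of values up to 20 fragments were whole within 0.05. Members with several transcripts were given their shortest, hence the fewest fragments. Fold calls use log2(FPKM + 0.1), which understates changes of low genes. Named are the members, the listed genes, overlapping genes or near copies, and the 3 nearest profiles. The members and lists were chosen with earlier results of these data known. The computation was tried on simulated data, and no difference between stages was tested. Python 3.11.15, pandas 2.3.3, scipy 1.17.1 and blastn 2.17.0 were used.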

Additional observations from a re-analysis of the deposited data

How the results depend on the processing

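Values were recomputed with libraries brought to an equal FPKM sum, to an equal upper quartile or divided by Gapdh, and with other pseudocounts, filters and thresholds. These scalings moved the median of all genes from d16 to d24 by -0.62, -0.29 and 1.16 on the log2 scale, from d24 to adult by -0.48, -0.24 and -0.07, and from d12 to d16 by -0.12, -0.13 and 0.69. Gapdh itself was at 68.9, 42.6, 19.1 and 20.04 FPKM.

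With equal sums, the count of members at least 2-fold lower was 1 from d12 to d16 (Catsper3, 1 fragment against 0) and 1 from d16 to d24 (Hvcn1), and 0 members were at least 2-fold higher from d24 to adult. At 1 FPKM, 1 member (Catsper2) was already at the threshold at d12, beside 51.4% of all genes. At 2 FPKM it was 0 members beside 44.9%. The median member ratio from d12 to d16 (6 members with a ratio) was 7.94 as deposited and 7.31, 7.23 and 12.8 with equal sums, upper quartiles and Gapdh. In the same order it was 37.2 and then 24.2, 30.5 and 82.9 from d16 to d24 (10 members, 2 of them bounds), and 1.59 and then 1.14, 1.35 and 1.52 from d24 to adult. Of 78 recomputed values of 26 member ratios, 6 belong to the bounds of Catsper1 and Catsper3 from d16 to d24, which have no interval and are labelled as moved. Of the others, 40 stayed within the interval, 27 moved out of it and 5, counted only for ratios whose interval excludes 1, changed direction, all from d24 to adult: Catsper2 to 0.881, Catsperb to 0.793 and Catsperg1 to 0.796 with equal sums, and Catsperb to 0.936 and Catsperg1 to 0.940 with upper quartiles. Ratios whose interval includes 1 also crossed it, as for Catsperg2 from d24 to adult and Hvcn1 from d16 to d24. Shares of all genes at least 2-fold higher ranged over the scalings from 11.5% to 27.9% for d12 to d16 and from 6.63% to 11.4% for d24 to adult, and those lower from 0.842% to 5.78% and from 2.2% to 10%. With a pseudocount of 1 FPKM, chosen after seeing the data, 0 of the 3 nearest profiles were kept for each of Catsper1, Kcnu1 and Hvcn1. Apart from the scaling itself, the cause was not tested. No paired analysis was possible because each stage has 1 library and no test was run. Depth limits Hvcn1 and the d12 and d16 values of the late members, which rest on few fragments.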
